A study of Mus musculus with 15 samples.

Results

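Resident Kupffer cell markers are 9 genes, Clec4f, Vsig4, Timd4, Cd5l, Cd163, Marco, Folr2, C6 and Clec1b, that are used to recognise the macrophages native to the mouse liver. They were picked by gene symbol from the 19938 genes of a liver expression array, each read by 1 probe set, and all 9 were measured. Whole-liver RNA from 15 mice, 3 in each of 5 groups, was measured on Affymetrix arrays that cover whole transcripts, and each mouse has its own array. The NEMO/Jnk1 DKO mice lacked NEMO, a scaffold protein needed to switch on the transcription factor NF-kB, in hepatocytes and the stress-activated kinase Jnk1 in every cell (NEMOΔhepa, Jnk1-/-). The NEMO/Jnk2 DKO mice lacked hepatocyte NEMO together with Jnk2 in every cell (NEMOΔhepa, Jnk2-/-). The Jnk1 KO and Jnk2 KO mice were global Jnk1-/- and Jnk2-/- animals with intact NEMO, and the WT mice carried the floxed NEMO gene without its deletion. All were C57BL/6, labelled male and 8 weeks old. NEMO was removed by a Cre driven by the albumin promoter, so the macrophages themselves kept NEMO, whereas they lacked Jnk1 or Jnk2 in the mice of the 4 knockout groups. Mice without NEMO but with both Jnk genes were not among these samples. The p-values measure the spread between the mice of these groups.

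Kupffer cells are macrophages seeded in the liver sinusoids before birth, where they clear bacteria, complement-coated particles, dying cells and haemoglobin from portal blood. When the liver is injured, resident cells can die and blood monocytes enter and take up part of the same programme, some markers early and others late. Timd4 and Clec4f are used in mice to tell long-resident cells from recent arrivals, and scavenger receptors such as Marco and Cd163 are known to vary with the state of the macrophage. In RNA of a whole liver, fewer cells of a type and less RNA per cell cannot be told apart. The values are log2 expression, so that a difference of 1 is a doubling, and they are compared between groups within a gene, not between genes.

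In 2 arrays, expression went against the NEMO label. The array labelled Jnk1 KO replicate 1 read 10.1 for Ly6d, a surface protein, and the array labelled Jnk2 KO replicate 3 read 9.70. The double knockouts lay between 7.88 and 10.5 and the 7 remaining NEMO-intact livers between 4.67 and 5.35. For Ikbkg, which encodes NEMO, the same 2 arrays gave 6.75 and 6.24, the double knockouts 6.18 to 6.85, and the 7 remaining livers 7.03 to 7.41. They are called the doubted arrays, and the results for the 9 markers that rest on them are given as labelled and without them, which leaves 2 arrays each in Jnk1 KO and Jnk2 KO. They were picked by genes that separate the double knockouts, so a call made against the single knockouts after leaving them out cannot count as separate support. Further, 3 arrays had the Xist and Y-linked levels of females against their labels, namely NEMO/Jnk1 DKO replicates 1 and 2 and Jnk1 KO replicate 1. All 9 markers lay above the 40th percentile of the gene values (4.09) in at least 13 of 15 arrays. Only Cd163 fell below it, in NEMO/Jnk2 DKO replicate 1 (3.99) and the doubted array of Jnk2 KO (3.79). Serving as a check of the tissue, 12 sinusoidal endothelial markers had a mean of 7.41 to 7.71 in the double knockouts and 7.26 to 7.75 in the 9 NEMO-intact arrays.

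Among the scavenger receptors, Marco was higher and Cd163 lower in both double knockouts than in WT livers. Marco encodes a class A scavenger receptor for bacteria and particles. It read 7.02, 7.41 and 6.06 in NEMO/Jnk1 DKO livers, 6.53, 6.99 and 6.13 in NEMO/Jnk2 DKO livers, and 4.99, 4.67 and 4.66 in WT livers. In the single knockouts it read 6.73, 4.33 and 4.67 in Jnk1 KO livers, where the first is doubted, and 6.59, 4.65 and 5.96 in Jnk2 KO livers, where the last is doubted. All 6 double-knockout arrays thus lay above all 3 WT arrays, and the doubted array of Jnk1 KO and Jnk2 KO replicate 1 lay within the range of the double knockouts. The doubted array of Jnk2 KO lay just below that range and above every WT array.

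Cd163, the receptor that takes up haptoglobin-bound haemoglobin, showed the reverse. It read 5.17, 5.17 and 4.80 in NEMO/Jnk1 DKO livers, 3.99, 4.59 and 4.35 in NEMO/Jnk2 DKO livers, and 5.95, 6.58 and 6.65 in WT livers. Jnk1 KO livers read 4.40, 6.44 and 6.19, the first of them doubted, and Jnk2 KO livers 6.88, 7.30 and 3.79, the last of them doubted. The 2 doubted arrays were the lowest of their groups, and each of the 6 double-knockout arrays lay below each of the other 7 NEMO-intact arrays. The group means ran from 4.31 ± 0.31 in NEMO/Jnk2 DKO livers over 5.05 ± 0.22 in NEMO/Jnk1 DKO, 5.68 ± 1.11 in Jnk1 KO and 5.99 ± 1.91 in Jnk2 KO livers to 6.39 ± 0.38 in WT livers (SD, n = 3 each). The arrays of the double knockouts did not overlap each other, and those of NEMO/Jnk1 DKO overlapped Jnk1 KO only through the doubted array. Jnk1 KO, Jnk2 KO and WT overlapped one another, but Jnk2 KO overlapped the others only through the doubted arrays. Without these, Jnk2 KO livers read 6.88 and 7.30, above every remaining Jnk1 KO array and every WT array.

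**Figure D1:**
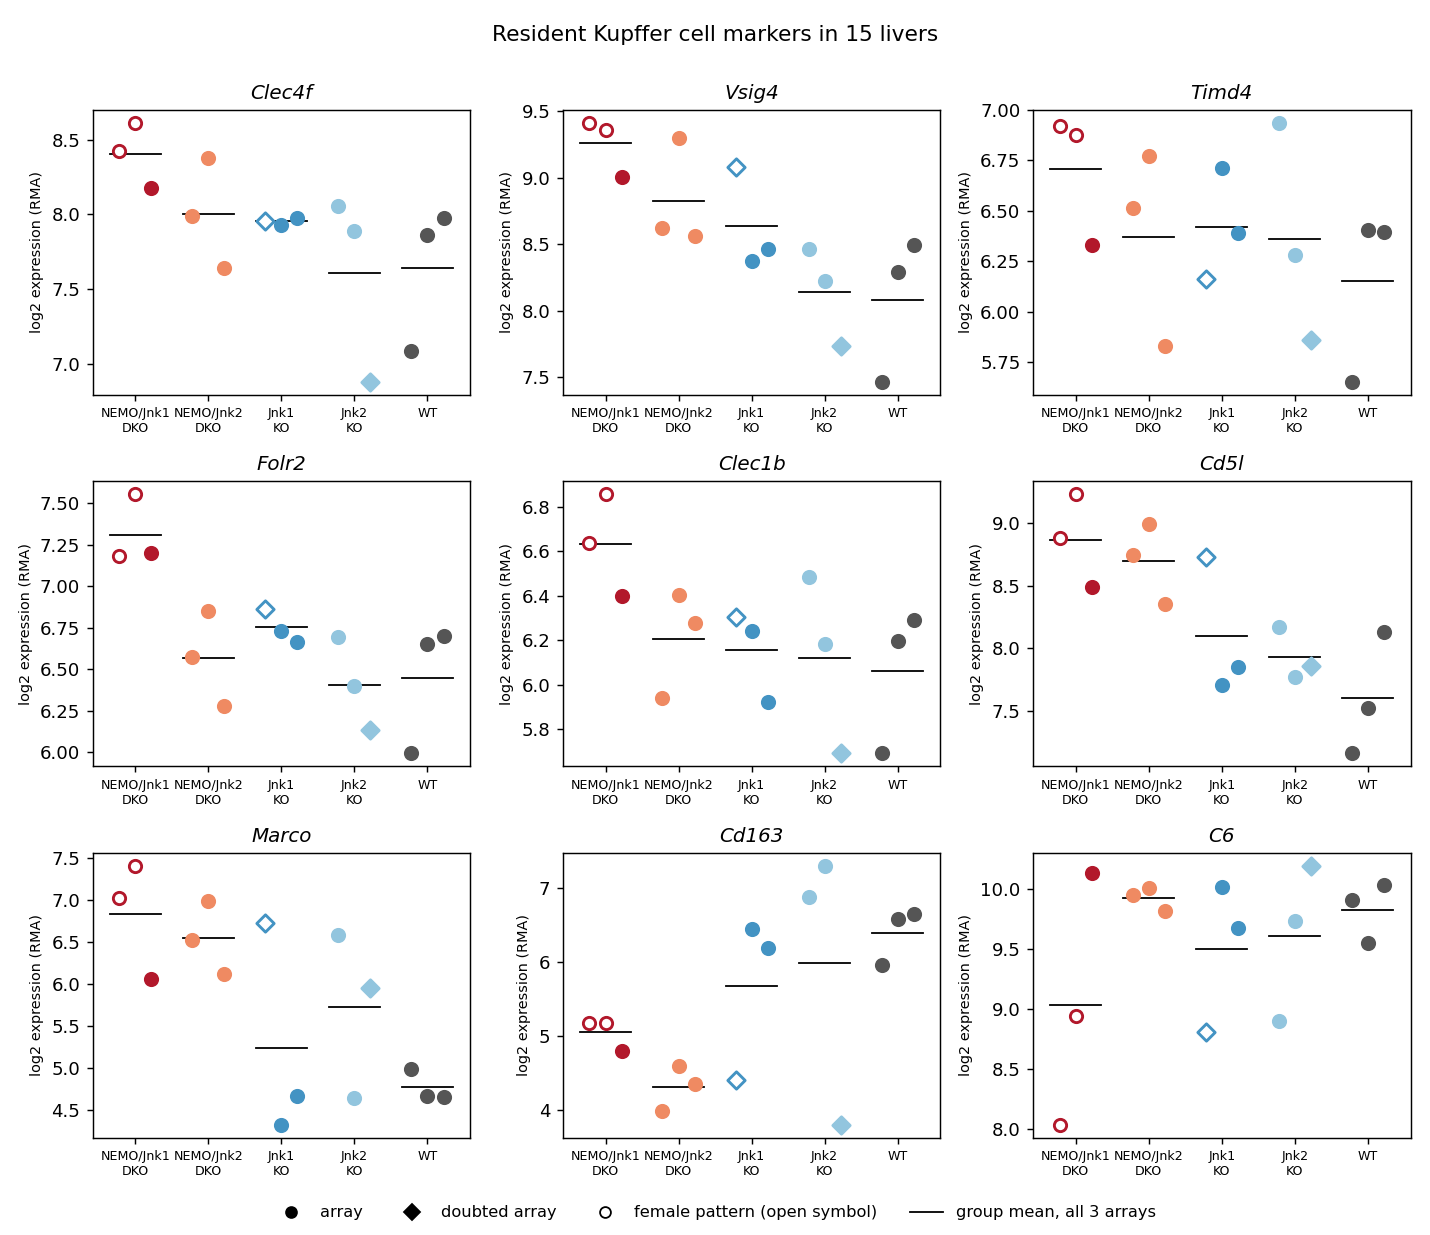
Log2 expression of the 9 markers (vertical axes, RMA values) in each of the 15 livers by group, with a line at the mean of all 3 arrays of a group, diamonds for the 2 doubted arrays and open symbols for the 3 arrays with the female pattern. Marco is above 6.0 in all 6 double-knockout arrays and at most 4.99 in the WT arrays, and Cd163 is at most 5.17 in the double knockouts and at least 5.95 in the WT arrays.

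Cd5l and Vsig4 were higher in every double-knockout array than in every WT array. Cd5l encodes a secreted protein of tissue macrophages that protects them from apoptosis. It read 8.87, 9.23 and 8.49 in NEMO/Jnk1 DKO livers, 8.74, 8.99 and 8.35 in NEMO/Jnk2 DKO livers, and 7.17, 7.53 and 8.13 in WT livers. Jnk1 KO livers read 8.73, 7.71 and 7.85 and Jnk2 KO livers 8.17, 7.77 and 7.86, and of the doubted arrays only the one in Jnk1 KO, the first value, reached the double knockouts.

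Vsig4, a gene on the X chromosome, encodes the complement receptor with which Kupffer cells capture opsonised bacteria. It read 9.42, 9.36 and 9.01 in NEMO/Jnk1 DKO livers, 8.62, 9.30 and 8.57 in NEMO/Jnk2 DKO livers, and 7.47, 8.29 and 8.49 in WT livers. Jnk1 KO livers read 9.08, 8.37 and 8.46 and Jnk2 KO livers 8.47, 8.23 and 7.74, so that the doubted array was the highest of Jnk1 KO and the lowest of Jnk2 KO. The 3 arrays with the female pattern were at 9.08 to 9.42 and the 12 others at 7.47 to 9.30. The part of sex in the difference was tested only through fits with a sex term.

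The gene starts of these 4 markers were read because Marco, Cd5l and Vsig4 moved one way and Cd163 the other. The 250 bases before the start are shown from 5′ to 3′ in the gene's own direction, as given by RefSeq for GRCm38.p6, with matches to GAGGAAG or AGGAAGT, on either strand, in capitals. These are forms of the motif of PU.1, the transcription factor that macrophages depend on, and they share the letters AGGAAG. Sequences were held for all 9 markers.
Marco (chr1:120505025-120505274, minus strand): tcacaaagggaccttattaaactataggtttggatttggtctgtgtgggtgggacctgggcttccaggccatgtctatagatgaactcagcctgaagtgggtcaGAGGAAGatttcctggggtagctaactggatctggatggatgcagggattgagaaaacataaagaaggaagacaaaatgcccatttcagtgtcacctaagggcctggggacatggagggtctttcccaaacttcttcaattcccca
Cd5l (chr3:87357631-87357880, plus strand): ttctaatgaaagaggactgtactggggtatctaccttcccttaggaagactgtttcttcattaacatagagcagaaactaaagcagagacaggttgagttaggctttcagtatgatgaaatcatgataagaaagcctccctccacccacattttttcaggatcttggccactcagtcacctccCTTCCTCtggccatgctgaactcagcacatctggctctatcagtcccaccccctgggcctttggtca
Vsig4 (chrX:96293439-96293688, minus strand): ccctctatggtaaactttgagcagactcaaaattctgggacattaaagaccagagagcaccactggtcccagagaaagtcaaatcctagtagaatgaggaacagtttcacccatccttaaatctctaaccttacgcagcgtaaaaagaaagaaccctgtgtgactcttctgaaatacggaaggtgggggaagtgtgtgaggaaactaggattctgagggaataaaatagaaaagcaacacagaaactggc
Cd163 (chr6:124304401-124304650, plus strand): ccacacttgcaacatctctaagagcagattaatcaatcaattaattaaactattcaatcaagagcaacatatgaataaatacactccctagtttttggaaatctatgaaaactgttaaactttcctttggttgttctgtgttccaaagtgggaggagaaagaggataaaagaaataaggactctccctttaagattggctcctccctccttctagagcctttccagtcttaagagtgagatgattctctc
The Marco window held GAGGAAG 146 bases before the start on the gene's own strand. The Cd5l window held it on the other strand, 67 bases before the start, and the Vsig4 and Cd163 windows held neither form. Among the other markers, 1 of the windows of Folr2 held AGGAAGT at 2 places, and Clec4f, Timd4, C6 and Clec1b held none. Of 32851 mouse windows of this length, 10.6% held GAGGAAG and 7.69% AGGAAGT, so a match is a description and no more. Spi1, which encodes PU.1 and is named here after its value was seen, was higher by 0.79 in the double knockouts averaged over both Jnk backgrounds without the doubted arrays (limma adjusted p = 0.00181), and by 0.50 as labelled (adjusted p = 0.412).

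The comparisons of the double knockouts with WT contain neither doubted array, so their differences are the same with and without them. Only the estimate of the spread, which all groups share, depends on them. Between NEMO/Jnk2 DKO and WT, which also contain no array with the female pattern, Cd163 differed by -2.08, Marco by 1.77 and Cd5l by 1.08 on the log2 scale, 4.24-fold lower, 3.42-fold higher and 2.12-fold higher. With the spread of all 15 arrays, 0 of 9 markers passed a Benjamini-Hochberg adjusted p of 0.05 in limma, where 2.63% of all genes passed. An unadjusted p below 0.05 was found for 4 markers and for 3766 of 19938 genes. With the spread of the arrays without the doubted ones, these 3 markers passed, Cd163 with an adjusted p of 5.06e-05 (SE 0.20), Marco with 0.0154 (SE 0.42) and Cd5l with 0.0109 (SE 0.24), where 10.6% of all genes passed. The same 3 passed in limma when only the 6 arrays compared were fitted (adjusted p = 0.00096, 0.00151 and 0.0268). Vsig4 was at 0.74 (SE 0.24, adjusted p = 0.0716) without the doubted arrays, with all 3 NEMO/Jnk2 DKO arrays above all 3 WT arrays. In 4 of 9 markers, these 3 and Vsig4, the arrays did not overlap, as in 27.8% of all genes. Marco missed the threshold without the doubted arrays when NEMO/Jnk2 DKO replicate 1 (adjusted p = 0.0505) or 2 (0.0643) or WT replicate 2 (0.0567) was also left out, and Vsig4 passed without WT replicate 3 (0.0356).

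Between NEMO/Jnk1 DKO and WT, Marco differed by 2.06, Cd163 by -1.35, Cd5l by 1.25, Vsig4 by 1.18 and Folr2 by 0.86. As labelled, 0 of 9 markers passed in limma, where 0.0652% of all genes passed. Of the markers 6 had an unadjusted p below 0.05, as did 3256 of 19938 genes. Without the doubted arrays these 5 passed (limma adjusted p = 0.00885, 0.00131, 0.00611, 0.00937 and 0.0138 in that order), where 7.91% of all genes passed. The same 5 passed when only the 6 arrays compared were fitted. The arrays did not overlap for 7 of 9 markers, these 5 with Clec4f and Clec1b, as was the case for 25.5% of all genes. In this comparison 2 of the 3 double-knockout arrays have the female pattern, and a sex term added to the fit without the doubted arrays leaves NEMO/Jnk1 DKO replicate 3 alone to set the difference. Cd163 then passed (-1.60, adjusted p = 0.0171) and Marco (1.29, adjusted p = 0.336), Cd5l, Vsig4 and Folr2 did not. Without that replicate 3 the count was 8 of 9, with Clec4f, Clec1b and C6 added and Timd4 the exception, and without replicate 2 it was 4, with Folr2 lost (adjusted p = 0.07). Both double knockouts are compared with the same 3 WT arrays, and replicate 1 of WT was the lowest of these for 7 markers, Clec4f, Vsig4, Timd4, Cd5l, Cd163, Folr2 and Clec1b. Without it, Folr2 in NEMO/Jnk1 DKO was at 0.64 (adjusted p = 0.0501) and Cd5l in NEMO/Jnk2 DKO at 0.86 (adjusted p = 0.0513), also without the doubted arrays.

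The comparisons with the single knockouts set livers that differ in hepatocyte NEMO against each other, and no marker passed there as labelled. In limma 0 of 9 markers passed between NEMO/Jnk1 DKO and Jnk1 KO, where 0% of all genes did, and 0 between NEMO/Jnk2 DKO and Jnk2 KO, where 0.00502% did. At an unadjusted p below 0.05 these counts were 5 and 3 of 9 markers, and 908 and 1578 of 19938 genes. The arrays did not overlap for 3 markers in NEMO/Jnk1 DKO against Jnk1 KO, namely Clec4f, Folr2 and Clec1b, as in 6.69% of all genes, and for Vsig4 and Cd5l in NEMO/Jnk2 DKO against Jnk2 KO, as in 11.7%. Without the doubted arrays, Cd163 was lower in both, with a difference of -1.27 in NEMO/Jnk1 DKO against Jnk1 KO (SE 0.23, adjusted p = 0.00493) and of -2.78 in NEMO/Jnk2 DKO against Jnk2 KO (SE 0.23, adjusted p = 2.56e-05). Marco rose by 2.33 (SE 0.47, adjusted p = 0.0107) and Cd5l by 1.08 (SE 0.27, adjusted p = 0.0348) in NEMO/Jnk1 DKO against Jnk1 KO. For NEMO/Jnk2 DKO against Jnk2 KO, the difference was 0.93 for Marco (SE 0.47, adjusted p = 0.329) and 0.72 for Cd5l (SE 0.27, adjusted p = 0.16). The counts of 3 and 1 markers compare with 5.18% and 5.85% of all genes in these comparisons.

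The single arrays of these small groups set some of the calls. With Jnk1 KO replicate 2 also left out, 0 markers passed between NEMO/Jnk1 DKO and Jnk1 KO, with Cd163 at an adjusted p of 0.0663 and 1 array left in Jnk1 KO, which is assumed to vary like the others. With Jnk1 KO replicate 3 left out, 1 passed, with NEMO/Jnk1 DKO replicate 1 or 2 left out, 2 passed, and without NEMO/Jnk1 DKO replicate 3, 4 passed, the added one being C6 (-1.36, adjusted p = 0.0171). With Jnk2 KO replicate 1 left out, whose Marco was high, Marco in NEMO/Jnk2 DKO was at 1.90 against the remaining Jnk2 KO array (adjusted p = 0.0271) and 2 markers passed. With the sex term, without the doubted arrays, Cd163 was at -1.52 between NEMO/Jnk1 DKO and Jnk1 KO. In that fit NEMO/Jnk1 DKO replicate 3 alone sets the difference.

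Averaged over both Jnk backgrounds, 4 of 9 markers passed without the doubted arrays, where 11.7% of all genes passed. Cd163 differed by -2.02 (SE 0.16, adjusted p = 6.39e-06), Marco by 1.63 (SE 0.33, adjusted p = 0.00562), Cd5l by 0.90 (SE 0.19, adjusted p = 0.00722) and Vsig4 by 0.66 (SE 0.19, adjusted p = 0.0399). As labelled these were at -1.16, 1.20, 0.76 and 0.65, and 0 of 9 passed in limma, where 0.00502% of all genes did. An unadjusted p below 0.05 was found as labelled for 5 markers and for 2093 of 19938 genes. With the sex term added to the fit without the doubted arrays, Cd163 was at -2.15, and Marco, Cd5l and Vsig4 no longer passed. In that fit NEMO/Jnk1 DKO replicate 3 alone stands for its group. Vsig4 lost its call in the fit without the doubted arrays when any of 7 further arrays was left out, the remaining 4 of Jnk1 KO and Jnk2 KO, NEMO/Jnk1 DKO replicates 1 and 2 or NEMO/Jnk2 DKO replicate 2 (adjusted p = 0.0676 to 0.133). The median of the 9 markers was 0.24 without the doubted arrays and 0.36 as labelled, against -0.01 and -0.00 over all genes. Over pooled arrays, Vsig4 and Cd5l were higher and Cd163 lower in all 6 double-knockout arrays than in all 7 NEMO-intact arrays that are not doubted, as was the case for 6.5% of all genes in either direction. With the doubted arrays included, all 9 markers overlapped, and 0.115% of all genes did not.

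**Figure D2:**
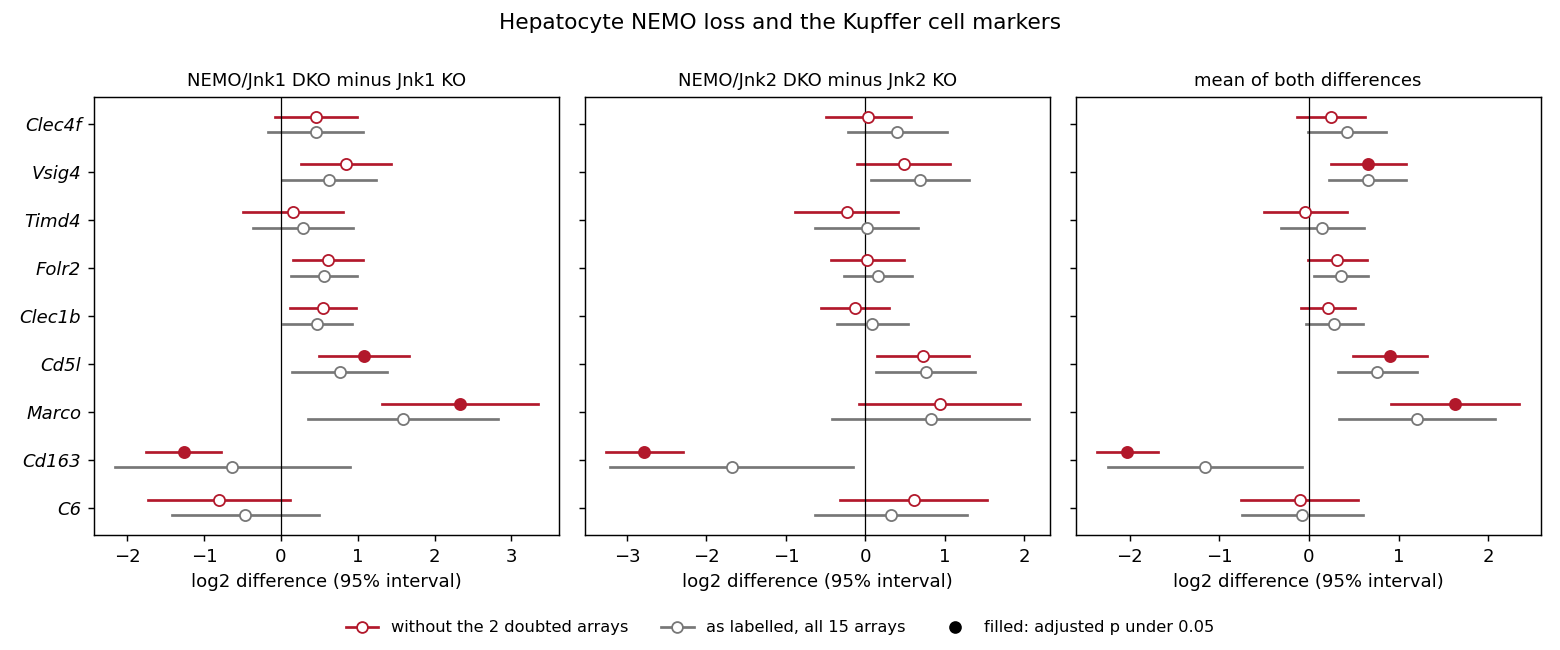
Log2 difference with its 95% interval (horizontal axes) for each marker in NEMO/Jnk1 DKO minus Jnk1 KO, NEMO/Jnk2 DKO minus Jnk2 KO and the mean of both, without the 2 doubted arrays in red and as labelled in grey, with filled points for an adjusted p under 0.05. Filled points are seen only without the doubted arrays, for Cd5l, Marco and Cd163 on the left, Cd163 in the middle and these 3 with Vsig4 on the right.

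Clec4f and Timd4 did not pass in either comparison with the single knockouts. Clec4f, a lectin for galactose-bearing glycoproteins that in mice is made by Kupffer cells, read 8.42, 8.61 and 8.18 in NEMO/Jnk1 DKO livers and 7.99, 8.38 and 7.64 in NEMO/Jnk2 DKO livers. It read 7.95, 7.93 and 7.97 in Jnk1 KO livers, 8.05, 7.89 and 6.88 in Jnk2 KO livers and 7.08, 7.86 and 7.98 in WT livers. All 3 NEMO/Jnk1 DKO arrays lay above the Jnk1 KO and the WT arrays, and the lowest value of all was the doubted array of Jnk2 KO. In the averaged comparison Clec4f was at 0.24 (95% interval from -0.13 to 0.62, adjusted p = 0.47) without the doubted arrays and 0.43 (adjusted p = 0.49) as labelled.

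Timd4, the receptor with which macrophages bind phosphatidylserine on dying cells, read 6.92, 6.87 and 6.33 in NEMO/Jnk1 DKO livers and 6.51, 6.77 and 5.83 in NEMO/Jnk2 DKO livers. Jnk1 KO livers read 6.16, 6.71 and 6.39, Jnk2 KO livers 6.94, 6.28 and 5.86 and WT livers 5.65, 6.40 and 6.39. All 5 groups overlapped. In the averaged comparison Timd4 was at -0.04 (95% interval from -0.50 to 0.42, adjusted p = 0.946) without the doubted arrays and at 0.15 (adjusted p = 0.857) as labelled, so that a change of up to 0.42 upward or 0.50 downward lies within the interval.

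Folr2, the beta folate receptor of tissue macrophages, read 7.18, 7.56 and 7.20 in NEMO/Jnk1 DKO livers, above the arrays of each other group. NEMO/Jnk2 DKO livers read 6.57, 6.85 and 6.28, Jnk1 KO livers 6.86, 6.73 and 6.67, Jnk2 KO livers 6.69, 6.40 and 6.13 and WT livers 5.99, 6.65 and 6.70, and these 4 groups overlapped. Against Jnk1 KO the difference was 0.61 (SE 0.21, adjusted p = 0.135) without the doubted arrays and 0.56 (adjusted p = 0.962) as labelled. Clec1b, a lectin receptor for podoplanin that platelets also carry, read 6.64, 6.86 and 6.40 in NEMO/Jnk1 DKO livers, 5.94, 6.41 and 6.28 in NEMO/Jnk2 DKO livers, 6.31, 6.24 and 5.92 in Jnk1 KO livers, 6.49, 6.18 and 5.69 in Jnk2 KO livers and 5.69, 6.20 and 6.29 in WT livers. Its NEMO/Jnk1 DKO arrays lay above those of Jnk1 KO and WT, and it passed in none of the 10 comparisons as labelled or without the doubted arrays. NEMO/Jnk1 DKO replicates 1 and 2 have the female pattern. For Folr2 the 3 arrays with that pattern were at 6.86 to 7.56 and the 12 others at 5.99 to 7.20. For Clec1b these ranges were 6.31 to 6.86 and 5.69 to 6.49.

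C6, a component of the complement membrane attack complex that hepatocytes make as well, read 8.04, 8.94 and 10.1 in NEMO/Jnk1 DKO livers and 9.95, 10.01 and 9.82 in NEMO/Jnk2 DKO livers. It read 8.81, 10.02 and 9.68 in Jnk1 KO livers, 8.90, 9.73 and 10.20 in Jnk2 KO livers and 9.91, 9.55 and 10.03 in WT livers. The 3 arrays with the female pattern held 3 of the 4 lowest values, 8.04, 8.81 and 8.94, and the fourth was Jnk2 KO replicate 1 with 8.90. In the averaged comparison C6 was at -0.10 (SE 0.30, limma adjusted p = 0.896) without the doubted arrays. With the sex term added C6 was at 0.45, in a fit where NEMO/Jnk1 DKO replicate 3 alone stands for its group. Of the 6 measured terminal complement genes, C6 included, C8g fell by 0.35 in the averaged comparison without the doubted arrays (adjusted p = 0.00404) and no other passed, whereas as labelled C8g was at -0.21 (adjusted p = 0.473).

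The identity of the missing Jnk gene made no difference that passed. Between NEMO/Jnk1 DKO and NEMO/Jnk2 DKO, 0 of 9 markers passed in limma, where 0.105% of all genes passed as labelled and 0.321% without the doubted arrays. The counts at an unadjusted p below 0.05 were 1 and 4 markers, and 1085 and 1496 of 19938 genes. Folr2 was higher by 0.74 in NEMO/Jnk1 DKO (SE 0.20, adjusted p = 0.345 as labelled and 0.184 without the doubted arrays) and Cd163 by 0.74 (adjusted p = 0.999 and 0.229). For both genes the arrays of the double knockouts did not overlap, as was the case for 12.6% of all genes. NEMO/Jnk1 DKO replicates 1 and 2 have the female pattern and no NEMO/Jnk2 DKO array has it. The Jnk gene and the sex pattern are thus mixed here. A sex term added to the fit without the doubted arrays leaves NEMO/Jnk1 DKO replicate 3 alone to set this difference. The median of the 9 markers was then 0.18, against 0.40 without the term. The difference between the NEMO effects on the Jnk1-null and the Jnk2-null background was 1.51 for Cd163 without the doubted arrays (SE 0.32, adjusted p = 0.199) and 1.05 as labelled. In limma 0 of 9 markers passed that test, where 0.01% of all genes passed without the doubted arrays and 0% as labelled. At an unadjusted p below 0.05 there were 3 and 0 markers, and 1313 and 548 of 19938 genes. Adding the sex term to the fit without the doubted arrays moved the median of the 9 markers from 0.42 to 0.19. There too NEMO/Jnk1 DKO replicate 3 alone stands for its group.

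In livers with intact NEMO, 0 of 9 markers passed between Jnk1 KO and WT. Of all genes 0.01% passed in limma as labelled and 0.015% without the doubted arrays. At an unadjusted p below 0.05 there were 0 markers in both, and 1113 and 1011 of 19938 genes. Between Jnk2 KO and WT 0 of 9 passed, where 0.411% of all genes passed as labelled and 1.24% without the doubted array. The counts at an unadjusted p below 0.05 were 0 and 1 markers, and 2416 and 2570 genes. Cd163 in Jnk2 KO against WT was at -0.40 as labelled and at 0.70 (SE 0.23, adjusted p = 0.179) without the doubted array of Jnk2 KO. Between Jnk1 KO and Jnk2 KO 0 of 9 passed, where 0.13% of all genes did as labelled and 0.597% without the doubted arrays. An unadjusted p below 0.05 was found for 0 and 2 markers, and for 1395 and 2152 genes. Marco was 4.33 and 4.67 in the other Jnk1 KO arrays and 6.59 and 4.65 in the other Jnk2 KO arrays, so its difference of -1.12 (adjusted p = 0.458) rests on Jnk2 KO replicate 1.

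Across the 15 arrays the markers fell into those that varied together and those that did not. Clec4f correlated with the mean of the other 8 at r = 0.94, Clec1b at 0.89, Folr2 at 0.86, Vsig4 at 0.84, Timd4 at 0.81 and Cd5l at 0.69. Marco stood at 0.24, Cd163 at -0.36 and C6 at -0.64. After the group means were taken out, Clec4f stood at 0.94, Folr2 at 0.93, Clec1b at 0.84, Vsig4 at 0.82, Timd4 at 0.80 and Cd5l at 0.58, while Cd163 stood at 0.19, Marco at -0.04 and C6 at -0.57. Between pairs, Marco correlated best with Cd5l (0.86, and 0.73 without the group means) and was opposite to Cd163 (-0.65 and -0.45). Cd163 correlated with Clec4f at 0.10 over the values and at 0.70 within groups. The doubted array of Jnk2 KO held the lowest value of all 15 arrays for both genes, 3.79 for Cd163 and 6.88 for Clec4f. How far the 0.70 rests on that array was not tested. These are descriptions over 15 arrays of 5 groups, which hold the 2 doubted arrays and share the tissue sample from which all genes of an array were read.

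**Figure D3:**
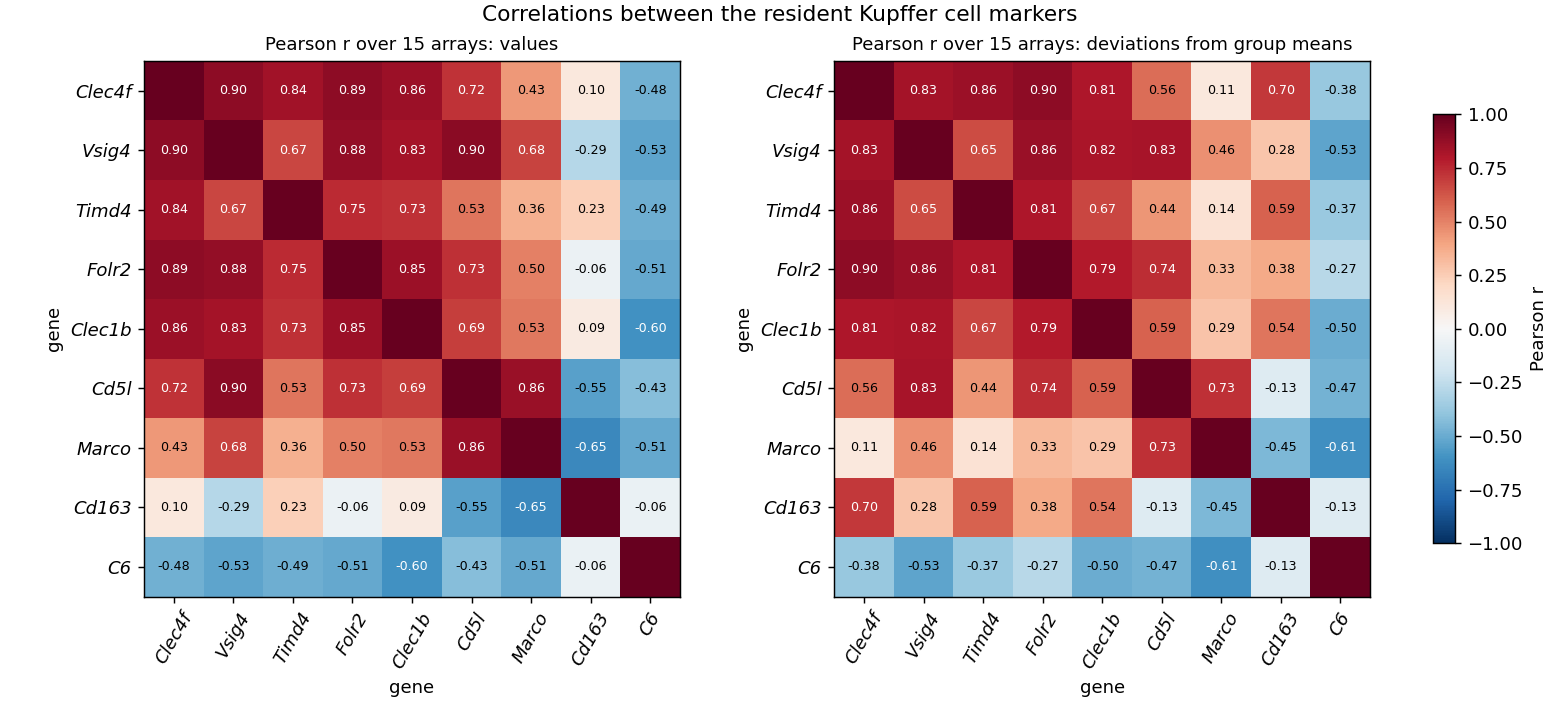
Pearson correlation between each pair of the 9 markers over the 15 arrays, of the values (left) and of the deviations from the group means (right), on a colour scale from -1 to 1. Clec4f, Vsig4, Timd4, Folr2 and Clec1b form a block of 0.67 to 0.90 on the left, Marco joins Cd5l at 0.86, and C6 is below 0 with every other marker.

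Outside the 9 markers, the genes whose values were most like their mean over the 15 arrays were Pcolce2 (r = 0.90), Cfp (0.88), Adgre4 (0.85), Sdc3 (0.84), Wfdc17 (0.84), Cdh5 (0.83), Fcna (0.81) and P2ry13 (0.77). By deviations from the group means, Fcna (0.92) and Pcolce2 (0.92) again led, ahead of Trav7d-4, Tbc1d23, Prl5a1, Aamdc, Mospd1 and Top3a (0.88 to 0.86). Fcna encodes a ficolin of the lectin complement pathway, Cfp encodes properdin and Adgre4 an adhesion receptor of myeloid cells. Fcna differed by -0.14 (adjusted p = 0.599) and Pcolce2 by -0.05 (adjusted p = 0.865) in the averaged comparison without the doubted arrays.

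Genes of the wider Kupffer cell programme and of other macrophages were read beside the markers. As labelled none of them passed in limma in the averaged comparison. Of these, 10 of 22 wider-programme, 6 of 12 monocyte and macrophage and 4 of 9 scar-associated genes had an unadjusted p below 0.05. The same held for 2093 of all 19938 genes. Without the doubted arrays, 12 of 22 measured genes of the wider programme rose and none fell, with a median of 0.42 (0.28 as labelled), where 7.68% of all genes rose. Cd36, a receptor for oxidised lipoprotein and fatty acids, rose by 2.14 (SE 0.14, adjusted p = 1.3e-06), and Axl, a receptor for dying cells, by 0.94 (SE 0.11, adjusted p = 0.000102). Id3, a regulator needed for Kupffer cell identity, rose by 0.86 (SE 0.14, adjusted p = 0.00155) and Hmox1, which breaks down haem, by 0.82 (SE 0.18, adjusted p = 0.00884). Spic, a regulator of iron-recycling macrophages, rose by 0.60 (adjusted p = 0.0137), whereas Nr1h3, which encodes the nuclear receptor LXR alpha and is also made by hepatocytes, was at -0.00 (adjusted p = 0.984). As labelled Cd36 was at 1.45, Axl at 0.58, Id3 at 0.48, Hmox1 at 0.58 and Spic at 0.55. Fcna and Pcolce2, which are also in this list and were most like the markers within groups, did not pass without the doubted arrays. Which cells the RNA of the genes that rose came from was not tested. Of 16 ligands and receptors of the Kupffer cell niche, 4 rose, namely Gdf2 by 0.68, Tgfbr2 by 0.63, Tgfbr1 by 0.44 and Tgfb1 by 0.34 without the doubted arrays, where as labelled these were at 0.49, 0.44, 0.23 and 0.19 and 0 of 16 passed in limma, with 3 at an unadjusted p below 0.05. The macrophage growth factors Csf1 (0.12, adjusted p = 0.654) and Il34 (0.22, adjusted p = 0.244) did not pass.

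Among markers of monocytes and general macrophages, 8 of 12 rose without the doubted arrays and none fell in the averaged comparison. Of all genes 7.68% rose there. The median of the 12 markers was 0.84 (0.56 as labelled). Among them Cd68, a lysosomal protein, rose by 1.55, Ccr2, the receptor that draws monocytes from blood, by 1.53, Plac8 by 1.30 and Lyz2 by 1.28, while Csf1r was at 0.54 (adjusted p = 0.0654). As labelled the first 4 were at 0.99, 0.83, 0.85 and 0.75. The mean of the 12 lay between 5.64 and 6.15 in the double knockouts, at 6.09 and 6.17 in the 2 doubted arrays and between 4.73 and 5.25 in the other 7 NEMO-intact arrays. Of 9 scar-associated macrophage genes, 8 rose with a median of 1.23 (0.69 as labelled), among them the elastase Mmp12 by 4.38, Gpnmb by 2.64, the fungal receptor Clec7a by 2.27 and Lpl by 1.39. As labelled Mmp12 was at 2.82, Gpnmb at 1.34, Clec7a at 1.51 and Lpl at 0.81. Their mean was 6.68 to 7.17 in the double knockouts, 7.05 and 7.44 in the doubted arrays and 5.24 to 5.54 in the 7 remaining livers with NEMO. Against WT, fitted without the doubted arrays, 10 of 12 monocyte and macrophage and 7 of 9 scar-associated genes rose in NEMO/Jnk1 DKO livers. In NEMO/Jnk2 DKO livers 10 and 8 rose. Of all 19938 genes 981 and 1147 rose in these comparisons, and 7.91% and 10.6% passed in either direction. As labelled the list counts were 0 of 12 and 0 of 9 in NEMO/Jnk1 DKO livers. In NEMO/Jnk2 DKO livers they were 2 of 12 and 2 of 9. Of all genes 0.0652% and 2.63% passed there in limma in either direction. In NEMO/Jnk1 DKO livers 9 and 6 of the listed genes had an unadjusted p below 0.05, as did 3256 of 19938 genes. The part of these cells in the marker differences was not tested.

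As labelled, 0 genes of the other lists passed in the averaged comparison in limma. Of these, 5 of 14 recruiting, 9 of 20 scavenger and complement receptor and 4 of 6 stellate cell genes had an unadjusted p below 0.05. So did 2093 of all 19938 genes. Of 14 ligands and receptors that recruit monocytes, 8 rose without the doubted arrays, among them Ccl3 by 1.55, Cxcl10 by 1.12 and Ccl5 by 0.86, where 7.68% of all genes rose. As labelled these were at 0.99, 0.64 and 0.51. Of the 20 scavenger and complement receptors of macrophages, a list that includes Clec4f, Marco, Cd163 and Vsig4, 10 rose and Cd163 alone fell, and C3ar1, the receptor of complement fragment C3a, rose by 1.71 (1.03 as labelled). Of 6 stellate cell markers 4 rose without the doubted arrays, with Pdgfrb at 1.26, Hgf at 0.92, Lrat at 0.83 and Reln at 0.62, and as labelled these were at 0.76, 0.56, 0.65 and 0.45. Without the doubted arrays 0 of 12 sinusoidal endothelial, 0 of 6 neutrophil, 0 of 5 hepatocyte and 0 of 3 B cell markers passed in limma, and 1 of 6 dendritic cell and 1 of 6 T and NK cell markers did. The endothelial median was -0.00 and that of the hepatocyte markers -0.02, against -0.01 over all genes. The mean over the arrays was below the 40th percentile for all 6 neutrophil markers. At an unadjusted p below 0.05 there were 0 endothelial, 2 neutrophil, 1 hepatocyte and 0 B cell markers, and 4642 of 19938 genes.

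**Figure D4:**
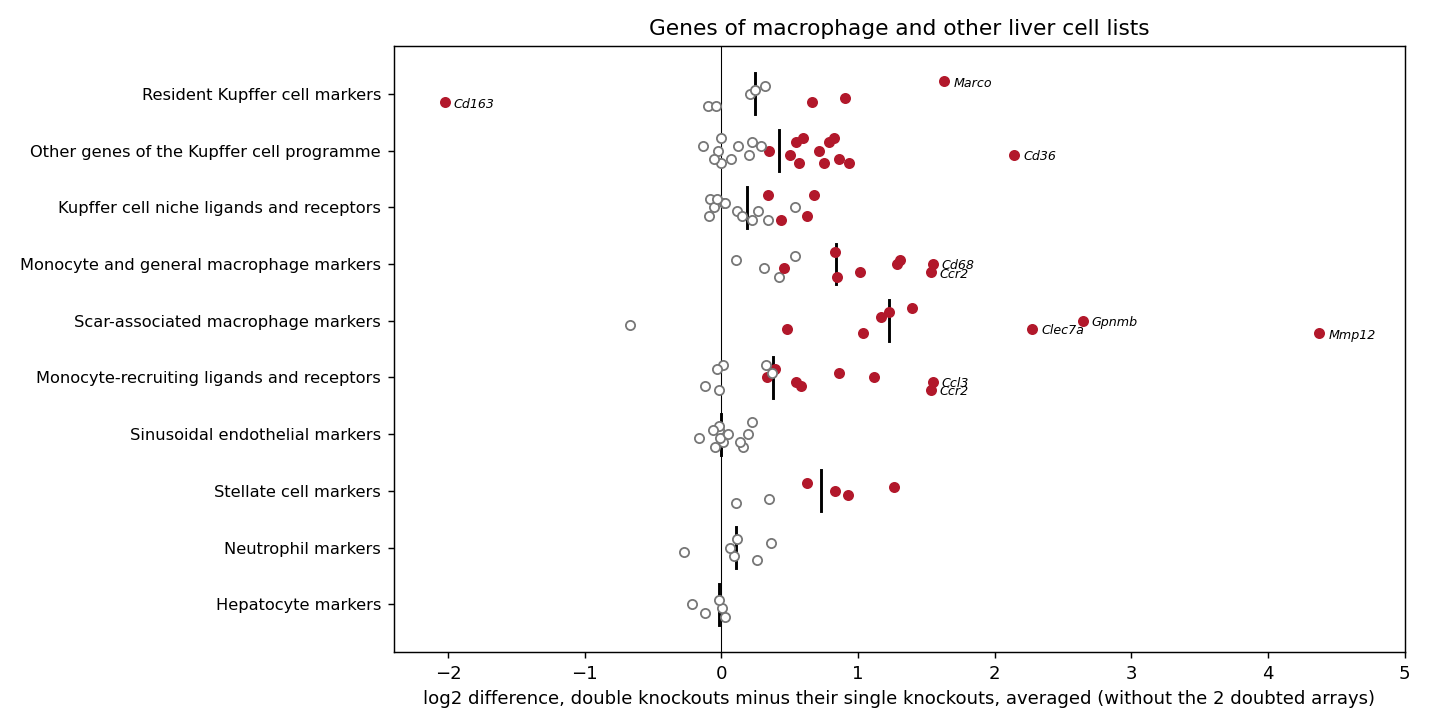
Log2 difference between the double knockouts and their single knockouts, averaged over both Jnk backgrounds without the 2 doubted arrays (horizontal axis), for each measured gene of 10 lists, with filled points for an adjusted p under 0.05 and a bar at the median of each list. The resident markers spread from -2.02 for Cd163 to 1.63 for Marco, and the medians of the monocyte and scar-associated lists are 0.84 and 1.23.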

How the data were processed

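RNA of 15 whole mouse livers was measured on 1 array each, 3 per labelled group. The values the authors deposited are on a log2 scale and come from RMA according to the submitters' processing notes, with no version named. That the base is 2 was judged from how far the values reach. RMA scales arrays together, so levels are relative. Array medians over 35556 probe sets lay between 4.26 and 4.38, and the number of arrays limits the precision. Probe sets were named through the platform's gene table, where 21789 had 1 symbol, 1621 several and 12146 were not listed. Those with 1 symbol were tested, 1 per gene with the highest mean, which gave 19938 genes. The 10 comparisons were tested with limma 3.58.1 in R 4.3.3 (lmFit, eBayes, 1 mean per group, all 15 arrays, 10 residual and 3.75 prior degrees of freedom) with Benjamini-Hochberg adjustment over all genes, and a gene passed at an adjusted p under 0.05. Without the doubted arrays these were 8 and 5.05 degrees of freedom. Figures used Python 3.11.15 and matplotlib 3.10.9.

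The markers and the 15 lists (147 symbols, 136 measured) were chosen with earlier results of these data known. Named genes are the 9 markers, up to 4 genes per list with the largest averaged difference among those that passed or the 2 with the lowest p, and 8 genes most like the markers by each correlation, with provisional gene models left out. Lists with no call were given as counts, and a few further genes were named after their values were seen. Other settings were a sex term, arrays left out, other normalizations, the variance prior, a filter on dim genes, every probe set, a fit of only the arrays compared and a replicate block. Same-numbered arrays of different groups did not deviate together (correlation from -0.395 to 0.304), so the main fits did not pair samples by number. The doubted and female-pattern arrays enter these deviations, so the check cannot exclude a pairing. The pipeline was tested on simulated data. The labels call the arrays separate mice. Motifs were searched in RefSeq windows of GRCm38.p6. The array build is not given in the sources used here.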

Additional observations from a re-analysis of the deposited data

How the results depend on the processing

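Of 1626 pairs of a result and another setting, 1450 kept direction and side of the threshold, but as labelled 0 markers passed in each comparison, so there was no marker call to lose. Without the 2 doubted arrays 3 passed in NEMO/Jnk1 DKO against Jnk1 KO, 1 in NEMO/Jnk2 DKO against Jnk2 KO, 4 in their average, and 5 and 3 in NEMO/Jnk1 DKO and NEMO/Jnk2 DKO against WT. With the sex term as well these were 1, 1, 1, 1 and 3. A fit of only the arrays compared gave 5 and 3 against WT. In NEMO/Jnk2 DKO against WT, the sex term alone gave 2, and so did a fit without the 3 female-pattern arrays. With each array left out in turn as labelled, the counts were 0 to 1, 0 to 1, 0 to 3, 0 and 0. With 1 more array left out beside the doubted ones, they were 0 to 4 in NEMO/Jnk1 DKO against Jnk1 KO (0 without Jnk1 KO replicate 2, 4 without NEMO/Jnk1 DKO replicate 3), 1 to 2 in NEMO/Jnk2 DKO against Jnk2 KO and 4 to 8 in NEMO/Jnk1 DKO against WT. Centring on medians moved the median of all genes to -0.12 and -0.11 in NEMO/Jnk1 DKO and NEMO/Jnk2 DKO against WT. Timd4 was at -0.22 in NEMO/Jnk1 DKO against Jnk1 KO with the doubted arrays left out and a sex term, or without the female-pattern arrays (0.16 to 0.48 with each array left out), and -0.24 in NEMO/Jnk2 DKO against Jnk2 KO without the doubted arrays, with or without sex term, -0.057 with centred arrays (-0.24 to 0.30 with each array left out). Its average was -0.039 without the doubted arrays, -0.23 with the sex term as well and -0.10 without the female-pattern arrays (0.025 to 0.30). C6 was at 0.29 in NEMO/Jnk1 DKO against Jnk1 KO under both of the first settings (-1.02 to 0.035), -0.038 to 0.61 in NEMO/Jnk2 DKO against Jnk2 KO with each array left out, and on average 0.15 with the sex term, 0.45 also without the doubted arrays and 0.30 without the female-pattern arrays (-0.35 to 0.18). Clec1b in NEMO/Jnk2 DKO against Jnk2 KO was at -0.13 without the doubted arrays, with or without sex term (-0.13 to 0.27). With each array left out, Folr2 in NEMO/Jnk2 DKO against WT was at -0.11 to 0.27, Cd163 in Jnk2 KO against WT at -1.06 to 0.70, the upper value also without the doubted arrays, with or without sex term, and Cd163 in Jnk1 KO against Jnk2 KO at -1.41 to 0.34, with 0.32 without the female-pattern arrays. The replicate block left 0 markers called in each of the 10 comparisons, and 3 of 15 arrays correlated best with an array of their own number. The cause of these reversals was not tested. With 3 or fewer arrays per group, a p above the threshold does not show that levels were equal, and the doubted arrays cannot be assigned to another group from their labels.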
